A study of Mus musculus with 12 samples.

Results

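The 9 genes described here are the receptors for corticosteroid hormones and genes that control or respond to them: Nr3c1, Nr3c2, Hsd11b1, Fkbp5, Sgk1, Tsc22d3, Zbtb16, Crhr1 and Crhbp. They were chosen by gene symbol from the 78298 genes of the deposited expression table, and all 9 passed the filter on low counts. The 12 libraries were made from poly(A) RNA of the hippocampus and form 3 groups of 4. All mice were male C57BL/6 animals that were bought at 6 to 8 weeks of age, acclimated for 7 days and kept in the study only if they preferred sucrose. Treatment mice went through 28 days of chronic unpredictable mild stress, a daily change of mild stressors that serves as a rodent model of depression. From day 15 they were also given poricoic acid A, a triterpenoid from Poria cocos, which is a medicinal fungus, once a day by gavage at 20 mg/kg for 14 days. Model mice went through the same stress and received saline. Control mice received saline and were not stressed. The labels put all libraries in 1 batch and give 4 per group without saying that each library is a separate animal, so p-values cover only the spread among these samples, which may be technical. The time of day at which tissue was taken is not given in the sources used here.

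Corticosterone, the main glucocorticoid of mice, acts in the brain through a pair of nuclear receptors. The mineralocorticoid receptor binds the hormone with high affinity and is largely occupied at rest, whereas the glucocorticoid receptor fills when the hormone peaks during stress or at the active part of the day. Both are held by heat shock chaperones until hormone binds, then enter the nucleus and act on genes with glucocorticoid response elements, and the hippocampus is known for its high content of both.

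A glucocorticoid response element in its palindromic form was looked for in the RefSeq promoter windows (build GRCm38.p6) of the members, each running from 250 bases before to 50 bases after a transcription start. Windows were found for 7 of the 9 members and numbered 14, of which 6 belonged to Sgk1 and 3 to Tsc22d3. The motif AGAACANNNTGTTC, searched on both strands, was present in 16 of the 32851 promoters of the table (0.0487%). Among the members it was present in 1 window, that of an Sgk1 start. The 6-base half-site AGAACA, also searched on both strands, was present in 19% of all promoters and in 4 of the 14 member windows, 3 of Sgk1 and 1 of Tsc22d3. In the Sgk1 window the palindrome AGAACAGAATGTTC lay 189 to 176 bases before the start. A second match on the other strand overlapped it by all but 1 base, and a further half-site lay 242 to 237 bases before the start. These letters are a match and do not show binding, and a window without them says nothing on the factor. The windows of 3 classical glucocorticoid-induced genes are shown so that windows with and without a match can be read side by side, with the motif and its half-sites in capitals: Sgk1 at chr10:21993640-21993939 on the plus strand, Tsc22d3 at chrX:140600473-140600772 on the minus strand, and Fkbp5 at chr17:28486100-28486399 on the minus strand, in which no match was found.
Sgk1: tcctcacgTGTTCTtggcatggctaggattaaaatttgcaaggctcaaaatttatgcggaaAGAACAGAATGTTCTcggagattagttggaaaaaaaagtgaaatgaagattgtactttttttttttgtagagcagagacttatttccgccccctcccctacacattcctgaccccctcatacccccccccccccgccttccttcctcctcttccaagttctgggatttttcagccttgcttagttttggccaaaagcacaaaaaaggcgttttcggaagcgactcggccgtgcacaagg
Tsc22d3: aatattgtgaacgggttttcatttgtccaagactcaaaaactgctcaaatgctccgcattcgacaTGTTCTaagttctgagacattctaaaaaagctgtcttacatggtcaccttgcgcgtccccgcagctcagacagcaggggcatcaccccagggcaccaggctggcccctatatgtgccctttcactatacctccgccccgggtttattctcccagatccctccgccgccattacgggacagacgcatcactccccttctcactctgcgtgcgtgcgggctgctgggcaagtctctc
Fkbp5: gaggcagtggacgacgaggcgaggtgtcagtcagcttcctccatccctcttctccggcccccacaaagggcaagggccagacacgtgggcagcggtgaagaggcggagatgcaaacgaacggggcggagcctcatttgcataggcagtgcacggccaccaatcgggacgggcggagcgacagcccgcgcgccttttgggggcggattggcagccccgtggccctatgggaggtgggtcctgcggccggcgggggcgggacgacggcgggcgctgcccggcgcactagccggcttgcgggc

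The libraries held 17083260 to 27479083 estimated counts (lowest in Control replicate 3, highest in Control replicate 2). All 8 markers of dentate granule cells, all 6 of CA1 and all 8 of CA2 and CA3 pyramidal cells were detected in at least 1 of the 12 libraries. So were all markers of the other 11 lists, tissues that adjoin the hippocampus included, so detection alone does not test the label. The summed level of 11 choroid plexus markers was 477 to 1485 CPM in Treatment, 611 to 885 CPM in Model and 731 to 2400 CPM in Control, where replicates 1 to 3 were at 1793 CPM or more. CPM are counts scaled to a common library size after TMM adjustment. Treatment replicates 2 and 3 carry library names of another number range than the other 10 libraries. Values without both are given for some of the genes and counts, and no value given does not mean no change.

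Per length, each of the 9 genes stood at or above the 75th percentile of all genes with any FPKM in the 12 libraries. That set takes in many genes with too few counts to be tested. Tsc22d3, which encodes the leucine zipper protein GILZ, had the highest deposited level at 34.5 ± 3.09 FPKM (mean ± SD over the 12 libraries). It was followed by Nr3c2, the mineralocorticoid receptor, at 27.7 ± 3.80 FPKM, by the kinase gene Sgk1 at 25.7 ± 2.18 FPKM and by Hsd11b1, whose enzyme regenerates active corticosterone inside cells, at 24.3 ± 3.06 FPKM. Fkbp5 with 18.2 ± 2.37 FPKM and the glucocorticoid receptor gene Nr3c1 with 17.8 ± 1.28 FPKM stood next to each other. Zbtb16, a zinc finger transcriptional repressor, had 11.7 ± 2.05 FPKM, the CRH-binding protein gene Crhbp 8.90 ± 1.52 FPKM and the CRH receptor gene Crhr1 4.58 ± 0.90 FPKM. The ranges of neighbours in this order overlapped at every step except between Nr3c1 (16.01 to 19.9 FPKM) and Zbtb16 (7.56 to 15.0 FPKM), and between Crhbp (6.14 to 12.0 FPKM) and Crhr1 (3.16 to 5.80 FPKM). Over the 12 libraries the level varied least for Nr3c1, with a coefficient of variation of 7.16%, and most for Crhr1, with 19.7%.

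**Figure D1:**
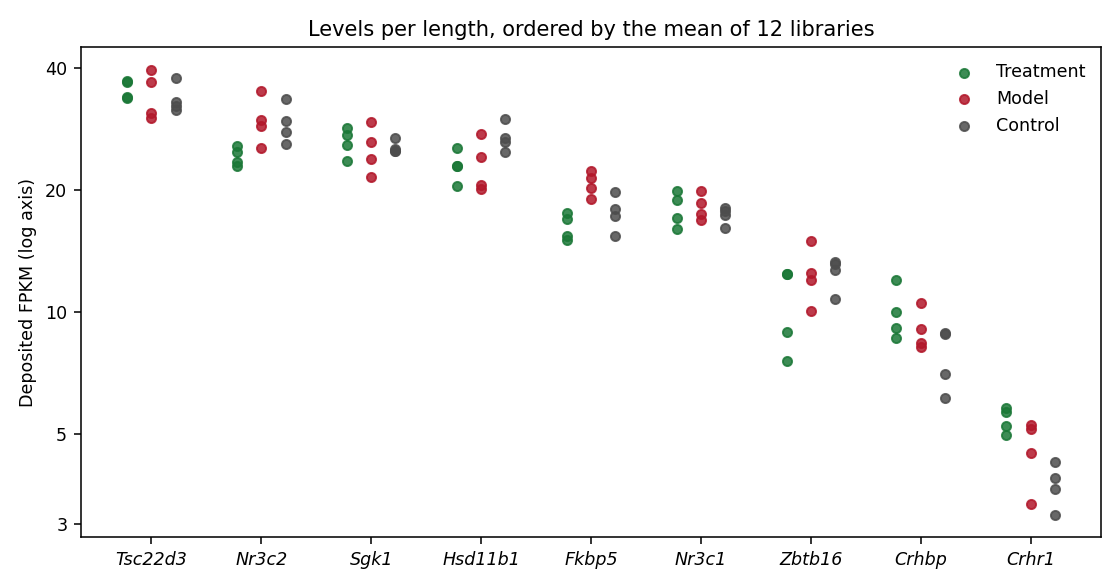
Deposited level of each gene in FPKM on a log axis, with genes ordered by the mean of the 12 libraries and 1 point per library (green Treatment, red Model, grey Control). Levels run from 34.5 FPKM for Tsc22d3 to 4.58 FPKM for Crhr1, and the only gaps between neighbouring genes lie below Nr3c1 and below Crhbp.

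The comparison of Treatment with Model asked which genes differ when stressed mice are given poricoic acid A. Fkbp5 and Nr3c2 were lower in every Treatment library than in any Model library, and the other 7 genes overlapped between the groups. Across all 18600 genes tested, edgeR's quasi-likelihood test called 1.88% at a Benjamini-Hochberg adjusted p under 0.05, and it called 0 of the 9 members. At an unadjusted p under 0.05 it found 2 of the 9, against 18.5% of all genes. DESeq2 called 2 members (Fkbp5 and Nr3c2) beside 1099 of all genes, and limma-voom 0 beside 318. Limma on the FPKM (pseudocount 0.1) called 0 beside 114. Groups did not overlap for 2 of the 9 members, both lower in Treatment, and for 9.5% of all genes in either direction. The median log2 fold change of the members was 0.02, and that of all genes was 0.00.

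Fkbp5 encodes FKBP51, a co-chaperone that binds the receptor complex and lowers its affinity for hormone, and the gene is itself induced by glucocorticoids. Its level was 49.0, 55.2, 55.0 and 51.5 CPM in Treatment replicates 1 to 4, against 63.8, 66.2, 73.9 and 62.2 CPM in Model replicates 1 to 4. Control, at 47.5, 56.4, 64.5 and 59.1 CPM, overlapped both. The gene is listed at chr17:28618068-28705123 (GRCm39 per the submitters' processing notes). The difference of Treatment from Model was -0.34 ± 0.08 on the log2 scale (SE; 95% interval -0.52 to -0.16), a level 20.8% lower, with an adjusted p = 0.0530 and an unadjusted p = 0.00107 in edgeR. It thus missed the threshold narrowly. Under 6 of 12 other settings it passed, with adjusted p between 0.000984 and 0.155 over them. Leaving out 1 library at a time gave differences between -0.37 and -0.28, and the test passed without Treatment replicate 3 (adjusted p = 0.0488), Control replicate 1 (0.0317) or Control replicate 3 (0.0475). Without Treatment replicates 2 and 3 together the difference was -0.40 with an adjusted p = 0.0951.

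Nr3c2 had 129.3, 138.7, 134.5 and 128 CPM in Treatment, against 139, 158.5, 193.3 and 159 CPM in Model. The lowest Model library, replicate 1, was separated from the highest Treatment library by less than 1 CPM, so the absence of overlap is slight. The difference was -0.29 ± 0.09 (95% interval -0.49 to -0.10), with an adjusted p = 0.108 in edgeR. It was -0.20 without Model replicate 3, the library with the highest Nr3c2 level of the 12. Without Treatment replicates 2 and 3 together it was -0.34 (adjusted p = 0.213 in edgeR). Treatment libraries varied little around their mean, at 132.6 ± 4.90 CPM, whereas Model libraries had 162.4 ± 22.6 CPM and Control libraries 156.1 ± 18.2 CPM (SD, n = 4 each). The deposited row of Nr3c2 lists coordinates of 8973 bases beside the name of a transcript (chr8:77626070-77635042), so the span may be that of 1 transcript.

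Nr3c1, the glucocorticoid receptor gene, overlapped between all 3 groups. It had 108, 101.4, 89.3 and 97.4 CPM in Treatment, 94.6, 101.5, 93.7 and 110.5 CPM in Model, and 101.8, 88.7, 93.9 and 89.6 CPM in Control. Treatment differed from Model by -0.02 ± 0.07 (95% interval -0.17 to 0.14). The ratio of Nr3c2 to Nr3c1, taken from their FPKM, was 1.18, 1.36, 1.545 and 1.35 in Treatment, 1.46, 1.60, 2.08 and 1.45 in Model, and 1.54, 1.605, 1.93 and 1.67 in Control. Treatment averaged 1.36 ± 0.15, Model 1.65 ± 0.30 and Control 1.69 ± 0.17. These ratios are given as a description, and 1 Treatment library, replicate 3, lay within the range of both other groups.

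Several marker lists differed between Treatment and Model alongside Fkbp5 and Nr3c2. The summed level of the 8 dentate granule cell markers was 466 to 495 CPM in Treatment. It was 574 to 692 CPM in Model and 481 to 599 CPM in Control. Of the 8, 3 were called lower in Treatment than in Model, where 1.88% of all genes were called. The 8 CA2 and CA3 markers, of which 1 was called lower, summed to 337 to 430 CPM in Treatment and 412 to 468 CPM in Model. These ranges overlapped, as did those of the 6 CA1 markers, at 490 to 632 CPM in Treatment and 499.8 to 622 CPM in Model. Other lists were higher in Treatment. The 5 neocortex markers summed to 121 to 153 CPM in Treatment and 85.2 to 101 CPM in Model. All 5 were higher and 2 were called. The 7 endothelial markers summed to 188 to 217 CPM in Treatment and 162 to 179 CPM in Model, with 7 of 7 higher and 2 called, and the 6 pericyte and smooth muscle markers to 143 to 162 CPM in Treatment and 125 to 129 CPM in Model, with 6 of 6 higher. Of the 8 astrocyte markers 3 were higher, of which 1 was called, and 5 were lower. None of these markers was at 0 in all 12 libraries. In bulk tissue, fewer cells of a type and less RNA per cell cannot be told apart, and the part of these markers in the differences of Fkbp5 and Nr3c2 was not tested.

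The remaining targets of the receptors overlapped between Treatment and Model. Sgk1, a kinase that regulates ion channels and transporters, averaged 55.8 ± 4.69 CPM in Treatment (49.5 to 60.3 CPM) and 51.5 ± 2.82 CPM in Model (48.4 to 55.1 CPM), a difference of 0.12 ± 0.07 with an adjusted p = 0.366 in edgeR. Tsc22d3, whose product GILZ restrains inflammatory signalling, had 57.9, 57.6, 52.3 and 54.2 CPM in Treatment, against 46, 57.7, 46.2 and 61.05 CPM in Model. Replicates 1 and 3 of Model lay below all Treatment libraries, replicate 2 among them and replicate 4 above, and the difference was 0.07 ± 0.09, or 0.00757 to 0.15 with 1 library left out. Both differences were positive where that of Fkbp5 was negative. Zbtb16 had 53.8, 54.7, 33.4 and 39.6 CPM in Treatment, against 55.2, 53.3, 63.9 and 45.3 CPM in Model. Its Treatment libraries fell into a pair within the Model range and a pair below it, and the difference was -0.26 ± 0.14 with an adjusted p = 0.336. It was -0.15 without Treatment replicate 3 and -0.17 without Model replicate 3. Hsd11b1 differed by 0.02 ± 0.10, Crhr1 by 0.23 ± 0.13 and Crhbp by 0.11 ± 0.13, each with an adjusted p of 0.379 or more. With 1 library left out, Crhr1 ranged from 0.11 (without Model replicate 3) to 0.30 (without Model replicate 4), and Crhbp from 0.01 (without Treatment replicate 3) to 0.18 (without Model replicate 4). Without Treatment replicates 2 and 3 together Crhr1 was at 0.33 and Crhbp at 0.04.

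**Figure D2:**
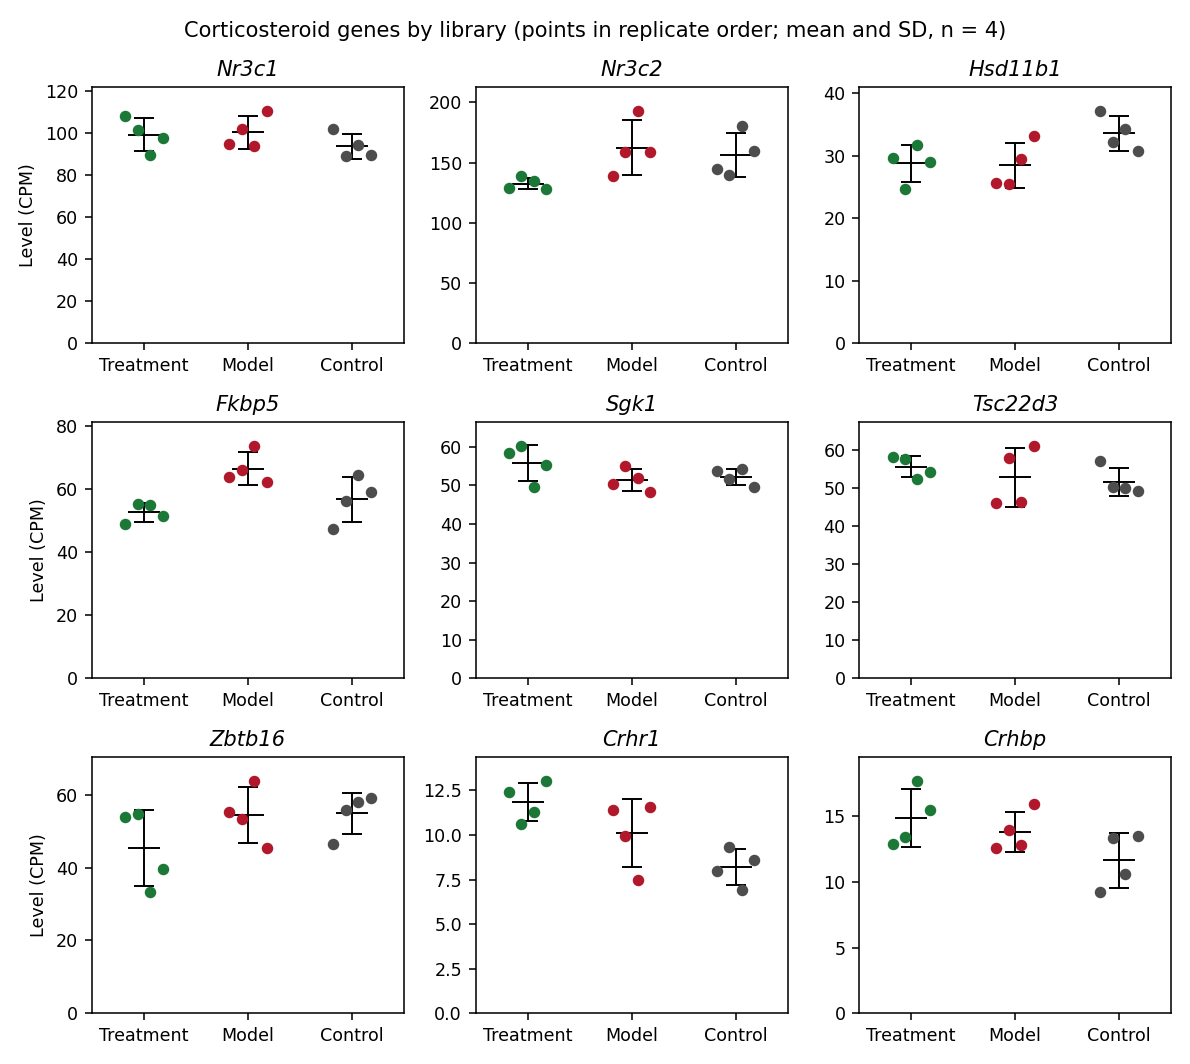
Level of each gene in CPM on axes from 0, with 1 point per library in replicate order within Treatment (green), Model (red) and Control (grey), and the mean with SD of 4 libraries as bars. Fkbp5 lies at 49.0 to 55.2 CPM in Treatment, below all 4 Model libraries at 62.2 CPM or more, while Nr3c1 overlaps across the 3 groups.

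For Model against Control the question was the effect of 28 days of stress. None of the 9 genes was called, and none separated the groups. In edgeR 0 of the 9 had an adjusted p under 0.05, against 0.79% of all genes, and 3 of the 9 had an unadjusted p under 0.05, against 15.6% of all genes. DESeq2, limma-voom and limma on the FPKM (pseudocount 0.1) also called 0, beside 692, 88 and 5 of all genes. Groups did not overlap for 0 of the 9 members and for 11.4% of all genes. The 3 genes at an unadjusted p under 0.05 were Fkbp5, Hsd11b1 and Crhr1.

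Fkbp5 was 0.23 ± 0.08 higher in Model than in Control (95% interval 0.05 to 0.41; adjusted p = 0.199 in edgeR). Only Control replicate 3, at 64.5 CPM, reached into the Model range. Hsd11b1 had 25.6, 25.5, 29.5 and 33.1 CPM in Model, against 37.2, 32.2, 34.2 and 30.7 CPM in Control. The difference was -0.24 ± 0.10 (95% interval -0.44 to -0.03; adjusted p = 0.243), and Model replicate 4 overlapped the Control libraries. Crhr1, the receptor through which CRH starts the stress response, had 11.4, 9.97, 7.46 and 11.6 CPM in Model, against 7.96, 9.34, 6.93 and 8.59 CPM in Control. Its difference was 0.29 ± 0.14 with an adjusted p = 0.308. Here 3 Model libraries lay above all Control libraries and Model replicate 3 lay among them.

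The intervals of both receptors included 0. Nr3c1 differed by 0.10 ± 0.07 and Nr3c2 by 0.06 ± 0.09, with adjusted p of 0.556 and 0.820 in edgeR. Sgk1 (-0.02 ± 0.07), Tsc22d3 (0.03 ± 0.09) and Zbtb16 (-0.01 ± 0.14) had the smallest differences of the 9, and the sign of each turned when single libraries were left out. Their 95% intervals reached from -0.16 to 0.12 for Sgk1, -0.16 to 0.22 for Tsc22d3 and -0.31 to 0.28 for Zbtb16.

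The comparison of Treatment with Control set mice that had both stress and the compound against mice that had neither. Crhr1 was higher and Nr3c2 lower in every Treatment library than in any Control library. In edgeR 0 of the 9 members were called, against 0.102% of all genes, and 4 of the 9 had an unadjusted p under 0.05, against 13.9% of all genes. DESeq2 called 1 member (Crhr1) beside 440 of all genes, and limma-voom 0 beside 9. Limma on the FPKM (pseudocount 0.1) called 0 beside 14. Groups did not overlap for 2 of the 9 members and for 7.24% of all genes.

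Crhr1 had 12.4, 10.6, 11.3 and 13.1 CPM in Treatment, against 7.96, 9.34, 6.93 and 8.59 CPM in Control. The level was 43.9% higher in Treatment, a log2 difference of 0.52 ± 0.13 (95% interval 0.24 to 0.81; adjusted p = 0.122 in edgeR). The Model libraries, at 7.46 to 11.6 CPM, overlapped both. Crhr1 is listed at chr11:104023681-104066349. Crhbp, whose secreted product binds CRH and withholds it from its receptors, differed in the same direction by 0.34 ± 0.13 (adjusted p = 0.260), with 12.9, 13.4, 17.7 and 15.5 CPM in Treatment and 9.22, 13.4, 10.7 and 13.5 CPM in Control. The difference of Crhr1 was 0.35 (adjusted p = 0.552) once a choroid plexus score per library was in the fit. For Model against Control it was then 0.11 in place of 0.29. The 5 neocortex markers, which were all higher in Treatment than in Control, summed to 121 to 153 CPM in Treatment and 88.2 to 109 CPM in Control, and their part in the difference of Crhr1 was not tested.

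Nr3c2 differed between Treatment and Control by -0.23 ± 0.09 (95% interval -0.43 to -0.04; adjusted p = 0.271 in edgeR). The highest Treatment library had 138.7 CPM and the lowest Control library 139.8 CPM, again a gap close to 1 CPM. The difference was -0.15 without Control replicate 3 (adjusted p = 0.627) and -0.16 with the choroid plexus score in the fit (adjusted p = 0.723). Hsd11b1 had 29.6, 24.7, 31.7 and 29 CPM in Treatment, against 37.2, 32.2, 34.2 and 30.7 CPM in Control, a difference of -0.22 ± 0.10 with an adjusted p = 0.320, or -0.15 without Treatment replicate 2. Both stressed groups thus had similar Hsd11b1 levels, at 28.7 ± 2.95 CPM in Treatment and 28.4 ± 3.61 CPM in Model, and Control had 33.6 ± 2.79 CPM. Fkbp5 differed by -0.11 ± 0.08 (adjusted p = 0.616), with a range of -0.19 to -0.04 over the fits that left out 1 library. All 3 comparisons share groups, and their values are not independent of each other.

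**Figure D3:**
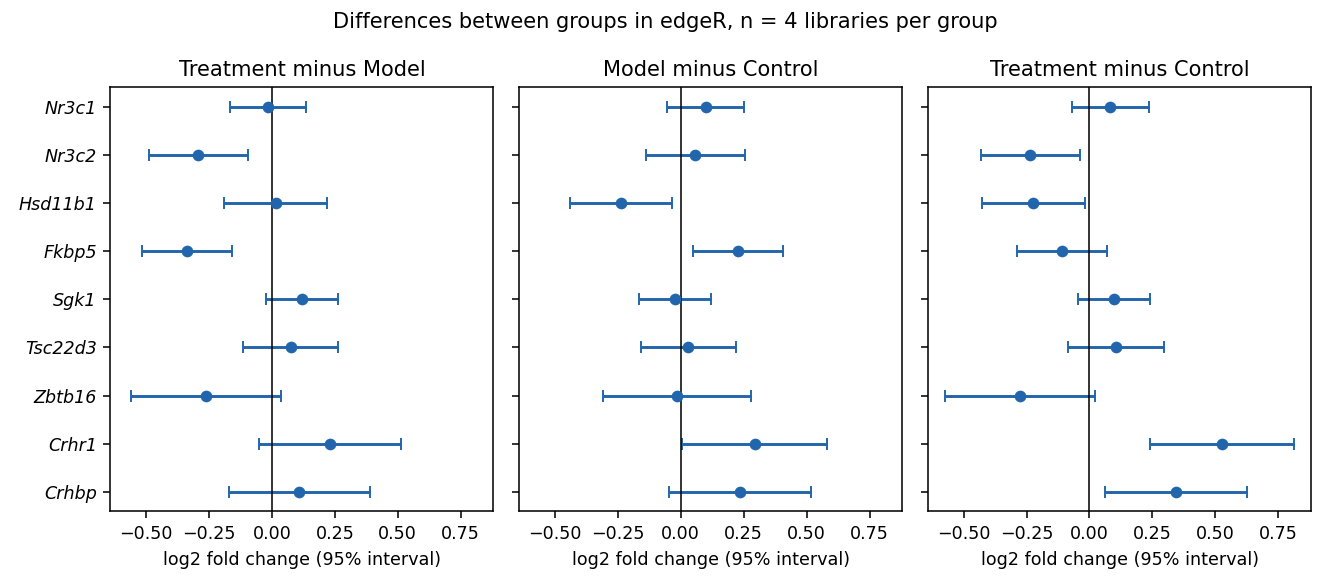
Log2 fold change of each gene with its 95% interval from edgeR (n = 4 libraries per group), with 1 panel per comparison and a vertical line at 0. The intervals of Fkbp5 and Nr3c2 lie below 0 for Treatment minus Model. For Model minus Control those of Fkbp5 and Crhr1 lie above 0 and that of Hsd11b1 below 0. For Treatment minus Control those of Crhr1 and Crhbp lie above 0 and those of Nr3c2 and Hsd11b1 below 0. None of the 27 differences had an adjusted p under 0.05.

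Over the 12 libraries, the 9 genes did not vary as 1 group. Of the 36 pairs, 15 had a positive correlation of log2 CPM, the median r was -0.10, and 3 pairs had an adjusted p under 0.05 for Pearson's r. No pair of the classical targets passed the test: r was -0.36 for Fkbp5 with Sgk1, -0.49 for Fkbp5 with Tsc22d3 and 0.39 for Sgk1 with Tsc22d3, with permutation adjusted p of 0.430 or more. Each receptor had its highest r with a different target. Nr3c2 varied in the same direction as Fkbp5 (r = 0.793, permutation p = 0.00201, adjusted p = 0.0314; Spearman's rho = 0.727, p = 0.00942, adjusted p = 0.113). For Nr3c1 the partner was Tsc22d3 (r = 0.80, permutation p = 0.00262, adjusted p = 0.0314; rho = 0.762, p = 0.00555, adjusted p = 0.0999). Nr3c2 and Crhr1 varied in opposite directions (r = -0.788, permutation p = 0.00214, adjusted p = 0.0314; rho = -0.783, p = 0.00347, adjusted p = 0.0999).

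All 3 relations were weaker without the 2 libraries farthest from the median of the receptor. Without Model replicate 3 and Control replicate 3, r was 0.63 for Nr3c2 with Fkbp5 and -0.55 for Nr3c2 with Crhr1. Without Treatment replicate 1 and Model replicate 4, r was 0.69 for Nr3c1 with Tsc22d3. To take out differences between groups, r was also computed on deviations from the group means. It was then 0.75 for Nr3c2 with Fkbp5 (permutation adjusted p = 0.0684), 0.85 for Nr3c1 with Tsc22d3 (0.0104) and -0.86 for Nr3c2 with Crhr1 (0.0101). These permutations moved the deviations freely among the 12 libraries and made no allowance for the group means taken out. The p-values of the deviations may therefore be too small. On deposited FPKM, only Nr3c2 with Crhr1 passed, with r = -0.86 and a permutation adjusted p = 0.0137, and the pair of Nr3c1 and Tsc22d3 had r = 0.71 and an adjusted p = 0.133. All pairs share the libraries and their depth and tissue content.

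**Figure D4:**
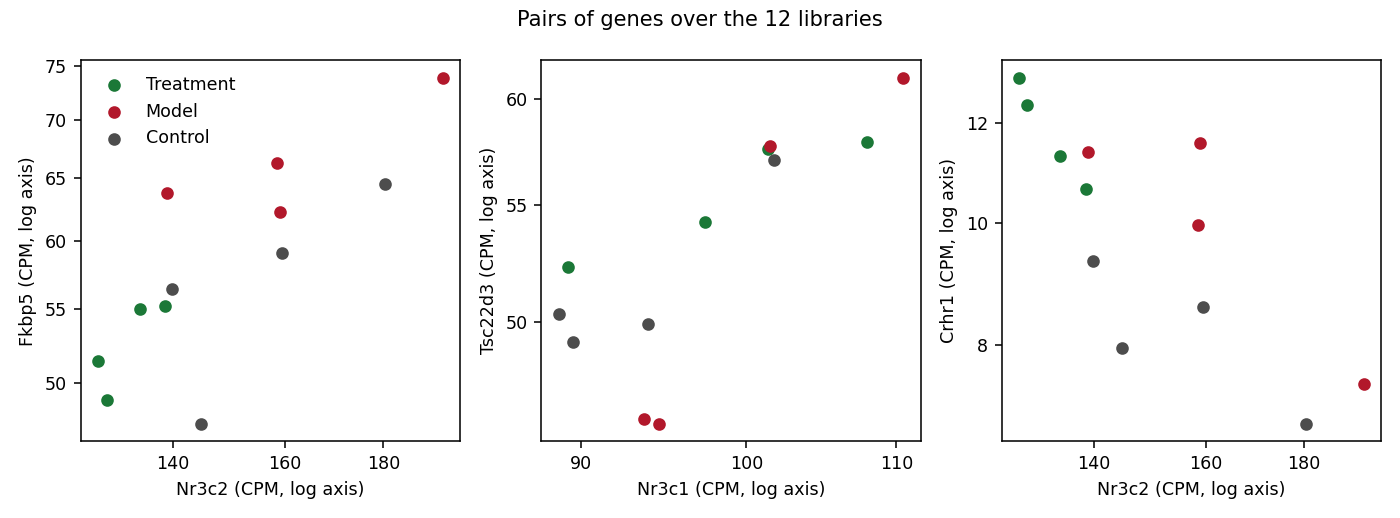
Levels of 3 pairs of genes in CPM on log axes, with 1 point per library (green Treatment, red Model, grey Control, n = 12). Fkbp5 increases with Nr3c2 (r = 0.793), Tsc22d3 increases with Nr3c1 (r = 0.80) and Crhr1 decreases with Nr3c2 (r = -0.788), and Model replicate 3 lies at the far end of both Nr3c2 panels.

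The genes most like a member over the 12 libraries were named by their Pearson r, out of 13667 tested genes with a symbol and a mean of at least 1 CPM. For Fkbp5 these were Slc44a5 (r = 0.967), Shisa6 (r = 0.959) and Gria1 (r = 0.947), the last of which encodes an AMPA receptor subunit. All of them were called for Treatment against Model, against 1.88% of all genes, where Fkbp5 missed the threshold. They were chosen for likeness to Fkbp5 over the same libraries, group differences included. Their calls are therefore not independent of the Fkbp5 values and add no support to its difference. Slc44a5 fell by 0.37 (adjusted p = 0.0393 in edgeR), Shisa6 by 0.44 (adjusted p = 0.0231) and Gria1 by 0.33 (adjusted p = 0.0446). For Nr3c2 the nearest genes were Plppr4 (r = 0.952), Orai2 (r = 0.947) and Iqgap2 (r = 0.932), and for Nr3c1 they were Tmx3 (r = 0.943), Ythdc2 (r = 0.910) and Tm9sf3 (r = 0.906). Crhr1 was most like Cdkn1a (r = 0.940), Arhgap26 (r = 0.939) and Nppc (r = 0.933). All these genes were picked as the highest of many values, so their r and their group differences are a description.

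The other genes of the pathway were taken as 5 lists written for this work with earlier results of these data known. Their counts beside those of all genes are therefore a description and add no independent support. The 12 chaperones and co-chaperones that hold the steroid receptors held 5 of the 6 calls. In Model, 11 of the 12 were higher than in Control, against 47.3% of all genes, with a median log2 fold change of 0.26 against -0.01 for all genes. Of the 12, 3 were called, against 0.79% of all genes. Stip1, whose product links HSP70 to HSP90, averaged 171.8 ± 9.68 CPM in Model and 124.2 ± 4.16 CPM in Control, and rose by 0.47 ± 0.06 (adjusted p = 0.00794 in edgeR). Hspa8, the constitutive HSP70, averaged 2028 ± 102 CPM in Model and 1570 ± 52.0 CPM in Control, and rose by 0.37 ± 0.07 (adjusted p = 0.0255). St13, a co-chaperone of HSP70, rose by 0.26 ± 0.06 (adjusted p = 0.0455). In Treatment, 10 of the 12 were lower than in Model (median -0.14 against 0.00 for all genes) and 2 were called, against 1.88% of all genes. Hsp90aa1, the inducible HSP90, averaged 1037 ± 71.6 CPM in Treatment and 1303 ± 81.1 CPM in Model, and fell by 0.33 ± 0.06 (adjusted p = 0.0231). Dnaja1, a co-chaperone of the HSP40 family, averaged 273.8 ± 21.2 CPM in Treatment and 336.4 ± 25.8 CPM in Model, and fell by 0.30 ± 0.07 (adjusted p = 0.0433). Against Control (1076 ± 57.1 CPM for Hsp90aa1, 272 ± 16.7 CPM for Dnaja1) the Model differences were 0.28 and 0.31, both with an adjusted p = 0.0537. Against Control, 11 of the 12 were higher in Treatment, with 47.9% of all genes positive and a median of 0.12 for the list against -0.01 for all genes. For this comparison edgeR called 0, DESeq2 1 (beside 440 of all genes) and limma-voom 0. In edgeR 6 of the 12 had an unadjusted p under 0.05, against 13.9% of all genes. Stip1 averaged 155.8 ± 13.1 CPM in Treatment, 0.33 ± 0.06 above Control (adjusted p = 0.0665), with every Treatment library above every Control library. Hspa8 averaged 1756 ± 197 CPM in Treatment (0.16 ± 0.07, adjusted p = 0.314) and St13 141.3 ± 6.62 CPM against 129.9 ± 3.88 CPM in Control (0.12 ± 0.06, adjusted p = 0.355).

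These calls differed in how firmly they stood. Stip1 passed whichever library was left out, with adjusted p between 0.00136 and 0.0396. Hspa8 did not pass without Model replicate 2, 3 or 4 or Control replicate 1 or 2 (adjusted p 0.0525 to 0.102), and Hsp90aa1 not without Treatment replicate 2 or Model replicate 2 or 3 (0.0613 to 0.0989). St13 passed only without 1 of the Treatment libraries and not without any Model or Control library (adjusted p up to 0.152), and Dnaja1 only without Treatment replicate 3 or Control replicate 2 (elsewhere 0.0502 to 0.141). Without Treatment replicates 2 and 3 together the adjusted p was 0.0655 for Hsp90aa1 and 0.145 for Dnaja1. In limma on FPKM (pseudocount 0.1) Stip1 passed (adjusted p = 0.0462), whereas the adjusted p was 0.0775 for Hspa8, 0.156 for Hsp90aa1, 0.0748 for Dnaja1 and 0.557 for St13, whose difference was then 0.11. That fit called 5 of all genes for Model against Control and 114 for Treatment against Model. With a choroid plexus score in the fit, 0 chaperones were called in Model against Control. That fit called only 3 of all genes, against 147 without the score. The adjusted p in edgeR was then 0.0739 for Stip1, 0.178 for Hspa8 and 0.358 for St13. The differences were then 0.48 for Stip1, 0.38 for Hspa8 and 0.23 for St13. Other marker lists also shifted between Model and Control, though their summed levels overlapped. Of all genes 47.3% were higher in Model and 0.79% were called. In Model 7 of 8 dentate granule cell markers (1 called) and 6 of 6 CA1 markers were higher. So were 6 of 8 CA2 and CA3 and 7 of 10 interneuron markers. All 5 thalamus and habenula markers and all 5 erythroid markers (1 called) were lower. The thalamus and habenula sum was 242 CPM in Control replicate 1 and at most 116 CPM in the other Control libraries. Lower too were 8 of 9 oligodendrocyte (1 called), 7 of 8 astrocyte and 5 of 6 microglia markers. So were 5 of 6 pericyte and smooth muscle, 4 of 6 leptomeninges and 4 of 5 neocortex markers. Endothelial markers went both ways, with 4 of 7 higher and 1 called lower. The part of these markers in the differences of the chaperones and of Fkbp5 was not tested.

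Of the 28 other genes listed as known glucocorticoid-induced genes, 1 was called, for Treatment against Model, where 1.88% of all genes were called. Per1, a clock gene that glucocorticoids induce, averaged 74.5 ± 11.8 CPM in Treatment and 57.0 ± 1.36 CPM in Model, and rose by 0.39 ± 0.09 (adjusted p = 0.0399 in edgeR). Control had 67.2 ± 4.38 CPM. Per1 and Fkbp5 thus had differences of opposite sign between Treatment and Model. Without Treatment replicate 2 or 4, any single Model library, or Control replicate 2 or 4, the adjusted p of Per1 lay between 0.0580 and 0.135, and on FPKM it was 0.0895. The list as a whole went neither way in Treatment against Model: 17 of the 28 were higher and 11 lower, with a median of 0.02. Of all genes 50.4% were higher, with a median of 0.00. At an unadjusted p under 0.05 in edgeR it held 5 of the 28, against 18.5% of all genes. For Model against Control 12 were higher and 16 lower (median -0.08), with 47.3% of all genes higher (median -0.01). There edgeR called 0, DESeq2 3 (beside 692 of all genes) and limma-voom 0. In edgeR 11 of the 28 had an unadjusted p under 0.05, against 15.6% of all genes. For Treatment against Control edgeR called 0, DESeq2 2 (beside 440 of all genes) and limma-voom 0. In edgeR 7 of the 28 had an unadjusted p under 0.05, against 13.9% of all genes.

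**Figure D5:**
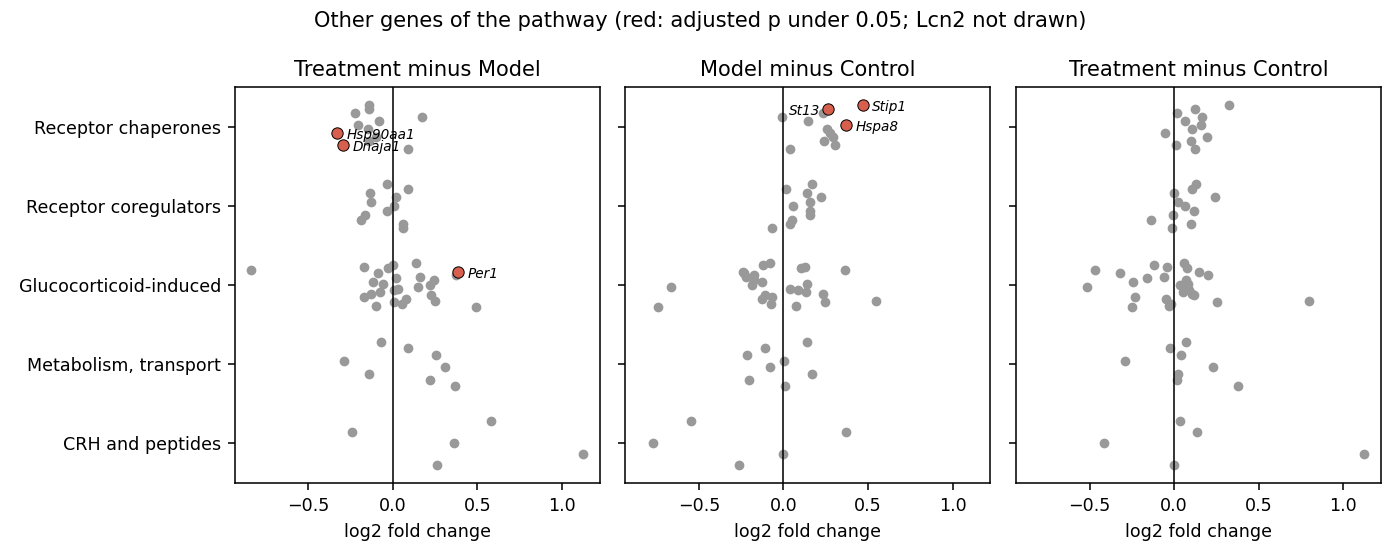
Log2 fold change of each tested gene of the 5 lists, 1 panel per comparison and 1 point per gene, with genes at an adjusted p under 0.05 in edgeR in red and named. Lcn2, which averaged 0.04 CPM in Control, 1.14 CPM in Model and 1.23 CPM in Treatment, is not drawn. It differed by 4.52 for Model minus Control (adjusted p = 0.0802 in edgeR) and 4.60 for Treatment minus Control (0.118). For Treatment minus Model it differed by 0.08. Chaperones lie mostly right of 0 for Model minus Control (11 of 12) and left of 0 for Treatment minus Model (10 of 12), and the glucocorticoid-induced genes lie on both sides.

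The 11 tested coregulators of the receptors included 0 called genes in any comparison in edgeR. At an unadjusted p under 0.05 there were 2 for Treatment against Model, 3 for Model against Control and 2 for Treatment against Control, against 18.5%, 15.6% and 13.9% of all genes. DESeq2 called 0, 1 and 1, beside 1099, 692 and 440 of all genes. For Model against Control 10 of the 11 were higher in Model, with a median of 0.14. Of all genes 47.3% were higher there, with a median of -0.01. In Treatment 5 of the 11 were higher than in Model, with a median of -0.04, against 50.4% and 0.00 for all genes. Of the 12 genes of CRH and other stress peptides only 5 passed the filter, and 0 were called by edgeR, DESeq2 or limma-voom. At an unadjusted p under 0.05 there were 1, 2 and 1 of the 5 in the same order, beside the same shares of all genes. Crh itself, named here after its values were seen because it encodes the ligand of Crhr1, had low levels: it averaged 2.46 ± 0.685 CPM in Treatment, 1.11 ± 0.629 CPM in Model and 1.1 ± 0.535 CPM in Control. The difference of Treatment from Model was 1.13 ± 0.38 with an adjusted p = 0.130 in edgeR, and these groups overlapped. From Control, Treatment differed by 1.12 ± 0.38 (adjusted p = 0.205), with every Treatment library above every Control library.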

How the data were processed

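The members were rows of the deposited table with 1 of 9 gene symbols. They and all lists were chosen with earlier results of these data known. The submitters' processing notes name STAR 2.7.10a, Salmon 1.10.1, cutadapt 3.4, Trim Galore 0.6.7 and FastQC 0.12.1 and the builds mm39 and GRCm39. Their roles, the annotation, the strand setting and any filter are not given in the sources used here. The deposited estimated counts per gene are not scaled, and 28.8% of the nonzero values are not whole within 1e-06. The deposited FPKM values were scaled by the authors by length and library total. Of the 78298 genes 21883 have no symbol.

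Estimated counts were rounded and fitted in edgeR 4.0.16 (R 4.3.3) with filterByExpr (minimum count 10, 18600 genes left), TMM scaling and a quasi-likelihood fit of 3 group means to all 12 libraries. On simulated data this procedure called 27% to 35% of genes changed by a log2 fold of 0.4, and 55% to 58% of those changed by 0.8. A gene that was not called may thus still differ. Genes were called where the Benjamini-Hochberg adjusted p, over every gene of the comparison, was under 0.05. The biological coefficient of variation was 10.7%. Correlations used log2 CPM (prior count 2), two-sided permutation tests with 100000 resamples and adjustment over 36 pairs, in Python 3.11.15 with SciPy 1.17.1. Named genes are all members, the called genes of each list (at most 4 of smallest p per comparison) and the 3 genes most like each member. Alternatives were RLE scaling, DESeq2 1.42.0, limma 3.58.1 (voom, or FPKM with pseudocounts of 0.1 and 1), other filters, 8-library fits, a replicate block, a choroid plexus score and left-out libraries. RefSeq promoter windows came from the earlier build GRCm38.p6. Reads were not analysed here.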

Additional observations from a re-analysis of the deposited data

Results flagged for a closer look

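Tsc22d3 in Control was the 1 case, of 27 combinations of a gene and a group examined, in which a single library stood far from the others. Control replicate 1 had 57.1 CPM, against 49.2 to 50.3 CPM in the other 3 Control libraries, and its gap to the nearest took up 0.858 of the range of the group, above Dixon's 95% critical value. Chance gives such a result in about 1 of 20 groups. The same library also had the highest Nr3c1 level of the Control group, at 101.8 CPM.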

How the results depend on the processing

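Of 324 member differences recomputed with 1 library left out 307 stayed on their side of the threshold with the same sign, as did 306 of 324 under the other alternatives. The count of members called for Treatment against Model, 0, was 1 with RLE scaling, a filter of 1 CPM in 8 libraries, the replicate block or the choroid plexus score (Fkbp5 in each), 2 in DESeq2 and 3 without a count filter, and 0 to 1 with a library left out. For Treatment against Control it was 1 in DESeq2 and 2 without a filter; for Model against Control it was 0 throughout. The count of all genes called for Treatment against Model, 350, was 1099 in DESeq2, 1090 without a filter, 137 with 8 libraries, 132 without Treatment replicates 2 and 3, and 114, 111 and 10 on FPKM with pseudocounts of 0.1, of 1, and of 0.1 without a filter. It ranged from 0 (without Model replicate 2 or 3) to 459 with a library left out. For Model against Control, 147, it was 692 in DESeq2, 88 in voom, 783 without a filter, 452 with 8 libraries, 228 with the block, 3 with the choroid plexus score, 284 without Treatment replicates 2 and 3, and 5, 5 and 8 on FPKM (8 to 273 with a library left out). For Treatment against Control, 19, it was 12 with RLE, 440 in DESeq2, 9 in voom, 748 without a filter, 2 with 8 libraries, 118 with the block, 0 with the score, 130 without Treatment replicates 2 and 3, and 9 and 12 on FPKM with a pseudocount of 1 and without a filter (0 to 73 with a library left out). Among members, signs turned where differences were near 0. Nr3c1 for Treatment against Model was 0.0365 without Treatment replicates 2 and 3 and -0.0599 to 0.0336 with a library left out. Hsd11b1 was -0.00314, -0.00328 and -0.00314 on FPKM and -0.0416 to 0.0950 with a library left out. For Model against Control, leaving out a library gave -0.0291 to 0.144 for Nr3c2, -0.0434 to 0.00783 for Sgk1, -0.0475 to 0.0966 for Tsc22d3 and -0.0938 to 0.0675 for Zbtb16, and with the score Sgk1 was at 0.0195 and Zbtb16 at 0.00173. On FPKM the r of Sgk1 with Tsc22d3 was -0.226. Replicate numbers shared by the groups did not mark pairs: same-numbered libraries correlated at -0.04 to 0.111, and 4 of 12 matched their own number best. The causes of these shifts were not tested. Crhr1 and Crhbp had the fewest counts of the members, at 119 to 303 and 183 to 371 per library.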

Other observations

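Genes that make, convert or move corticosteroids formed a list of 12, of which 8 passed the filter. Cyp11b1, Cyp11b2, Hsd11b2 and Srd5a2 had too few counts to be tested. In edgeR 0 of the 8 were called in any comparison, and 2, 0 and 2 had an unadjusted p under 0.05 for Treatment against Model, Model against Control and Treatment against Control, against 18.5%, 15.6% and 13.9% of all genes. DESeq2 called 1, 0 and 1, beside 1099, 692 and 440 of all genes, and limma-voom 0 throughout. Among stress peptides and their receptors, Avp, Avpr1b, Mc2r, Oxt, Ucn, Ucn2 and Ucn3 were not tested for the same reason.

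The genes most like the other members over the 12 libraries were Usp8 (r = 0.885), Nbas (r = 0.860) and Lrsam1 (r = 0.852) for Sgk1, and Serpinb6b (r = 0.852), Rhoq (r = 0.836) and Hs6st2 (r = 0.833) for Tsc22d3. For Hsd11b1 they were Ankrd37 (r = 0.885), Lage3 (r = 0.870) and Gng11 (r = 0.854). For Crhbp they were Smap2 (r = 0.930), Chp1 (r = 0.928) and Mapk14 (r = 0.909), and for Zbtb16 Abl2 (r = 0.943), Anapc1 (r = 0.937) and Utp20 (r = 0.933).

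Sgk1 differed from the other members in the length that its count and FPKM together imply. This length ranged from 1737 bases in Model replicate 3 to 2252 bases in Treatment replicate 1, a ratio of 1.30, whereas the ratio for the other 8 genes was 1.03 to 1.13. Model replicate 3 accordingly had the highest Sgk1 level of the 12 libraries in FPKM, at 29.3, but 51.9 CPM in counts, within the range of the other Model libraries at 48.4 to 55.1 CPM. Which transcripts of Sgk1 the libraries hold was not tested.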
